A study of Mus musculus with 18 samples.

Results

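Of 14541 autosomal Notch1 peaks in T cell acute lymphoblastic leukaemia (T-ALL), 581 lay across a region of H3K27me3 and a region of H3K4me3 that had each been listed as different between T-ALL and normal thymocytes. They made up 4.00% of the autosomal peaks (95% Clopper-Pearson interval 3.68 to 4.33). A peak was taken if it shared 1 bp or more with a listed region of each mark, whatever the display colour of that region. The members were therefore chosen by the positions of 3 of the deposited lists, and their overlap with the 2 marks, their width and the colours at them are descriptions, with no test. A peak or region that shares 1 bp or more with another is said below to meet it.

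The series compared normal thymus CD4+/8+ double-positive (DP) cells with tumours over-expressing Notch1-IC, the intracellular, active form of the Notch1 receptor, by chromatin immunoprecipitation and sequencing. For each histone mark the samples hold 2 libraries of either cell type, and for Notch1 there is 1 T-ALL library with 1 sonicated input. There are also 2 micrococcal nuclease input libraries of either cell type. The labels leave out strain, age, the animals behind each library and how Notch1-IC was over-expressed. The lists hold positions and colours with no gene names, so the labelled cell types could not be checked against their marker genes.

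Notch1 is cleaved on ligand binding, and its intracellular part enters the nucleus, where it acts with the DNA-binding protein RBPJ to switch on genes. T cell progenitors need this signal to commit to their lineage, and activating mutations of the receptor are common in T-ALL. H3K27me3 is laid down by Polycomb repressive complex 2 on silenced developmental genes, and H3K4me3 marks active and poised promoters. The marks can occupy the same promoter, a state known as bivalent. A region that is in both lists is a place where each mark differed between the cell types, and the lists do not say whether the marks were present together in either of them.

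Histone regions are drawn in red (RGB 200,0,0) or green, and neither labels nor headers explain the colours. Red and green therefore stand below only for 2 classes of region, with no direction of change attached. No region carries a fold change, a read count or a value per library, so no size of change, spread between replicates or depth can be given for any peak. Intervals below cover counting error only, and peaks are not replicates of a condition.

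Nearly all of the peaks in both marks were red in both. Of the 581 peaks, 543 (93.5%, 91.1 to 95.3) met only red H3K27me3 and only red H3K4me3, which is 3.73% of all autosomal Notch1 peaks. The next classes were small, with 13 peaks in green H3K27me3 and red H3K4me3 and 11 in red H3K27me3 and green H3K4me3. A further 14 peaks met red and green regions of the same mark. For 9 of these the mixed mark was H3K27me3 with red H3K4me3, for 4 it was H3K4me3 with red H3K27me3, and 1 had both colours of H3K27me3 with green H3K4me3. Green H3K27me3 alone met green H3K4me3 alone at 0 of 581 peaks. A limit of 3 counts of the total, used here for counts of 0, allows a share of up to 0.516%, and the upper Clopper-Pearson limit is 0.633%.

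Red was less common in the lists themselves, at 57.2% of autosomal H3K27me3 regions and 52.4% of autosomal H3K4me3 regions. At Notch1 peaks it was the rule with 1 mark as with both. Among peaks in both marks 96.0% (94.1 to 97.5) met red H3K27me3 alone, beside 97.2% (96.5 to 97.7) of the 2776 peaks in H3K27me3 only. For H3K4me3 the share was 97.2% (95.6 to 98.4) in peaks with both marks and 94.2% (92.9 to 95.4) in the 1423 peaks with H3K4me3 only.

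Where a green region was present, it covered little of the peak and almost never its centre. Green H3K27me3 met 23 of the peaks and covered a median of 16.7% of the peak, with 64.3% at most, against a median of 91.0% for red H3K27me3. Green H3K4me3 met 16 peaks and covered a median of 14.3%, with 70.0% at most, against a median of 71.0% for red H3K4me3. At all 23 and all 16 of these peaks a green region reached an end of the peak, as red H3K27me3 did at 502 of 568 and red H3K4me3 at 457 of 569. Green H3K27me3 covered the centre of 0 of the 23 peaks, which by 3 counts of the total allows a share of up to 13.0%, with an upper Clopper-Pearson limit of 14.8%. The only centre in green H3K4me3 was that of the peak on chromosome 16 from 30066276 to 30066775. By contrast red H3K27me3 covered the centre at 481 of the 568 peaks that met it (84.7%, 81.5 to 87.5) and red H3K4me3 at 449 of 569 (78.9%, 75.3 to 82.2).

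The named peaks show these arrangements. On chromosome 15 from 89208051 to 89210025 a peak of 1975 bp held a whole red H3K4me3 region of 675 bp over its centre, and green H3K27me3 reached 300 bp into one end, with no base in both. A peak of 1325 bp on chromosome 11 from 120094976 to 120096300 lay wholly in red H3K4me3, and green H3K27me3 took in 150 bp at one end. The third widest of this colour pair, on chromosome 5 from 136020076 to 136021175, had 775 bp in red H3K4me3 and 50 bp in green H3K27me3. In the opposite pair, a peak on chromosome 12 from 25785476 to 25786325 lay wholly in red H3K27me3 and had 75 bp in green H3K4me3. The wider peak on chromosome 5 from 77523551 to 77524500 had 250 bp in green H3K4me3. A peak at positions 56699651 to 56700525 of chromosome 12 had 175 bp in green H3K4me3. Each of these 6 peaks shows a green region that begins outside the peak and stops short of its centre.

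Peaks with both colours of 1 mark sat where red gave way to green. The distance between the red and the green region at the 14 such peaks ran from 0 to 600 bp, with a median of 100 bp. On chromosome 14 from 99697401 to 99698900, 2 red H3K27me3 regions met the peak, and a green one ended 50 bp before the first of them. On chromosome 13 from 53075326 to 53076150 a green H3K4me3 region of 1025 bp and a red one of 1425 bp lay 100 bp apart under the peak, which held a whole red H3K27me3 region of 700 bp. The 1 peak with green H3K4me3 and both colours of H3K27me3, on chromosome 16 from 35490126 to 35491275, touched green H3K4me3 with 25 bp.

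**Figure D1:**
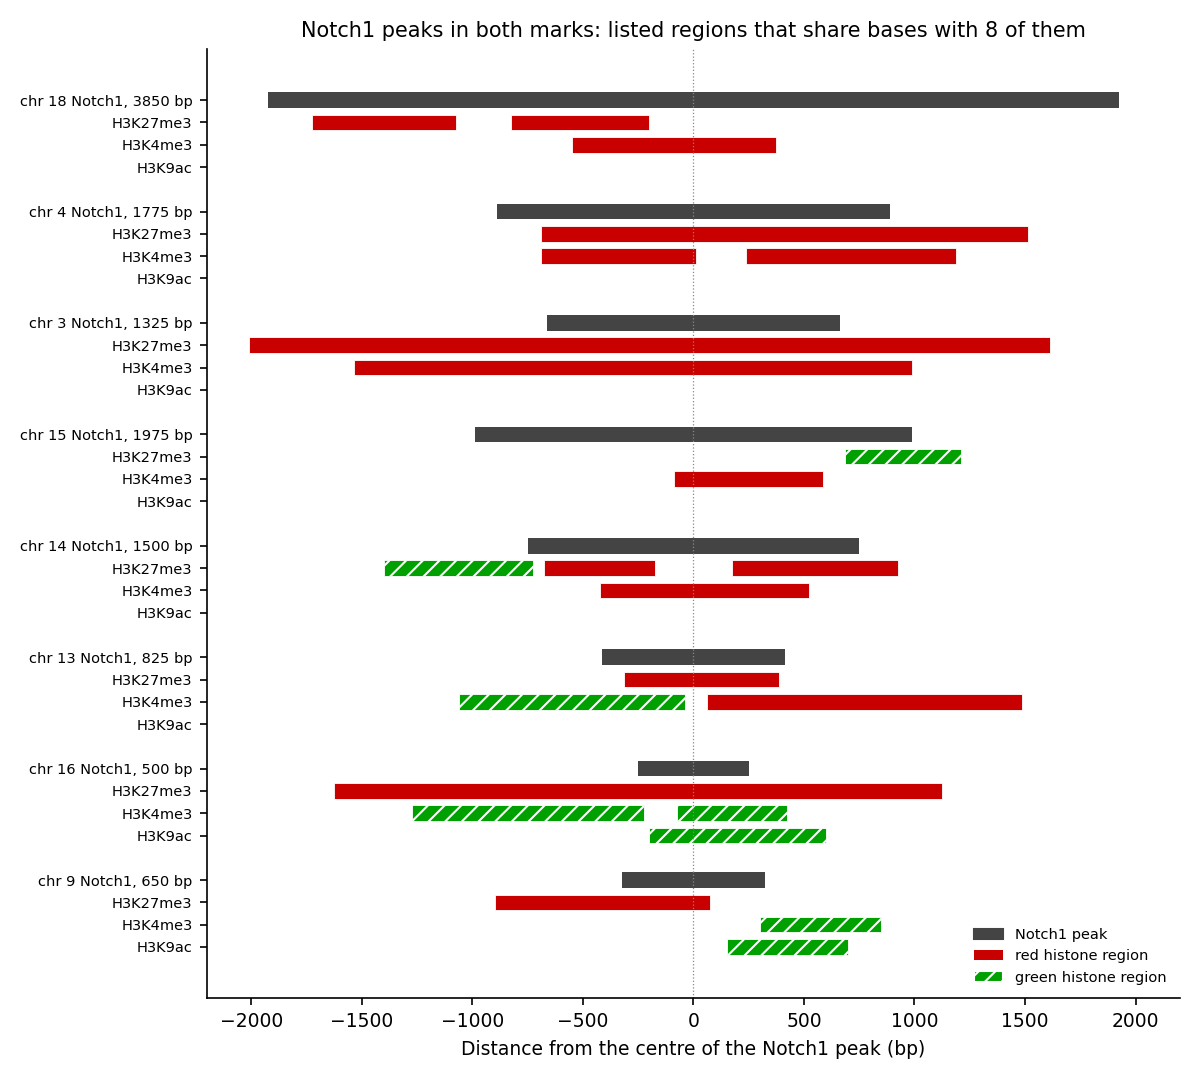
Listed regions that share bases with 8 of the Notch1 peaks, against the distance in bp from the centre of each peak (grey bar: Notch1 peak; plain red and hatched green bars: histone regions). Red regions lie over the middle of the peaks on chromosomes 4 and 3, and green H3K27me3 reaches only the ends of those on chromosomes 15 and 14.

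The marks overlapped each other inside most of the peaks. The regions met had median widths of 975 bp for H3K27me3 and 725 bp for H3K4me3. Regions that wide, meeting the same short peak, readily share bases in it, so the overlap is tied to the rule. A base in both marks was found in 561 of the 581 peaks, with a median of 450 bp in both (lower quartile 275 bp, upper quartile 575 bp). H3K27me3 covered a median of 90.6% of the peak (quartiles 62.2% and 100%), and H3K4me3 a median of 70.5% (50.0% and 90.0%). The whole peak lay in H3K27me3 in 237 cases (40.8%, 36.8 to 44.9), in H3K4me3 in 93 (16.0%, 13.1 to 19.2) and in both in 48 (8.26%, 6.15 to 10.8). At 371 peaks (63.9%, 59.8 to 67.8) both marks covered the centre, and at 21 neither did.

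The cover of peaks that met 1 mark alone can be set beside these values. In the peaks with H3K27me3 only, that mark covered a median of 93.9% of the peak and the whole of 44.8% of peaks (42.9 to 46.6). In those with H3K4me3 only, it covered a median of 70.4% and the whole of 13.5% (11.8 to 15.4).

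**Figure D2:**
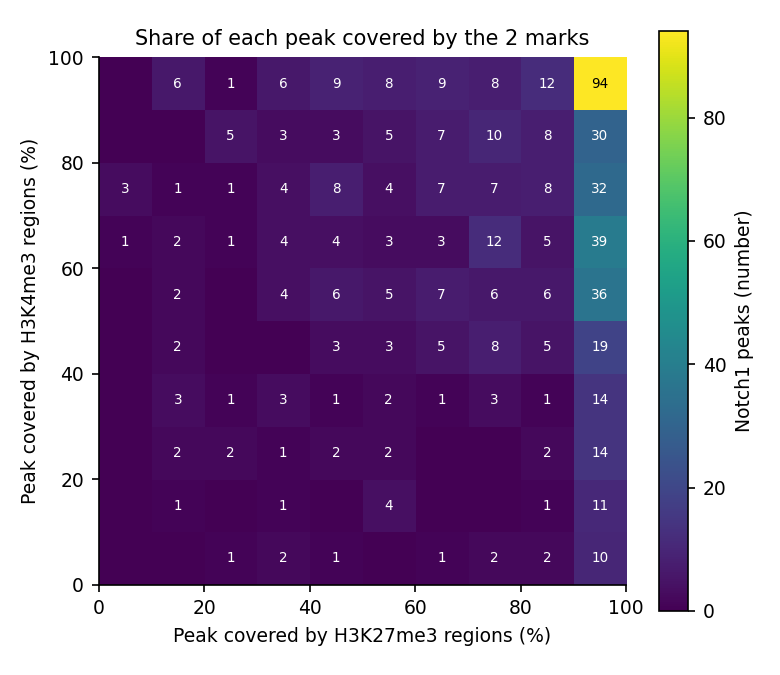
Number of the 581 Notch1 peaks by the percentage of the peak covered by H3K27me3 regions (horizontal axis) and by H3K4me3 regions (vertical axis), in steps of 10%. The fullest square holds 94 peaks covered by 90% or more of each mark, and 299 peaks in all had 90% or more in H3K27me3.

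H3K27me3 regions at the peaks were generally broader than the H3K4me3 regions they met. The 581 peaks met 592 H3K27me3 regions, with a median width of 975 bp, and 586 H3K4me3 regions, with a median width of 725 bp. Of the 546 peaks with 1 region of each mark, the H3K27me3 region was the wider at 372 (68.1%, 64.0 to 72.0). It held the H3K4me3 region whole at 216 (39.6%, 35.4 to 43.8), while the reverse was found at 63 (11.5%, 8.98 to 14.5). Both regions overlapped in part at 246 (45.1%, 40.8 to 49.3), and they shared no base at 20.

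Red regions under these peaks were wider than red regions without a Notch1 peak. Red H3K27me3 regions had a median width of 975 bp at peaks in both marks, 950 bp at other Notch1 peaks and 700 bp without a peak. Red H3K4me3 regions had medians of 725 bp, 675 bp and 600 bp in the same order. A wide region meets a peak more readily than a narrow one, so these widths are tied to the rule that chose the peaks.

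Away from the centre, cover by red regions dropped within 1 kb, and green H3K27me3 appeared beside it. In the 25 bp to either side of the centre 83.9% of the peaks were covered by red H3K27me3, and 20.1% were at 1 kb, each as a mean of both sides. Red H3K4me3 covered 78.1% at the centre and 7.83% at 1 kb. Green H3K27me3 covered 0.0861% at the centre and rose outwards to its highest value of 10.5% between 1375 and 1400 bp. At the 558 of 581 peaks that met only red H3K27me3, green can lie only outside the peak. The low value at the centre is therefore tied to the colours met. Peaks in H3K27me3 only had a similar profile. Red H3K27me3 covered 88.7% of those at the centre and 23.7% at 1 kb, and green H3K27me3 reached 10.9% between 1525 and 1550 bp. Outside the peak but within 5 kb of it, 259 of the 581 peaks (44.6%, 40.5 to 48.7) had a green H3K27me3 region and 280 (48.2%, 44.1 to 52.3) another red one.

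Green H3K27me3 lay near red H3K27me3 about as often where no Notch1 peak was present. Of the 567 red H3K27me3 regions at peaks in both marks, 257 (45.3%, 41.2 to 49.5) had a green H3K27me3 region within 5 kb, and 98 (17.3%, 14.3 to 20.7) had one on each side. Red regions without any Notch1 peak had one in 46.4% of cases (45.4 to 47.4) and on each side in 18.6% (17.8 to 19.4). Peaks in H3K27me3 only had a green region outside the peak within 5 kb in 48.8% of cases (46.9 to 50.7). The share was 4.92% (3.85 to 6.17) around peaks in H3K4me3 only and 3.63% (3.26 to 4.02) around peaks in neither mark.

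**Figure D3:**
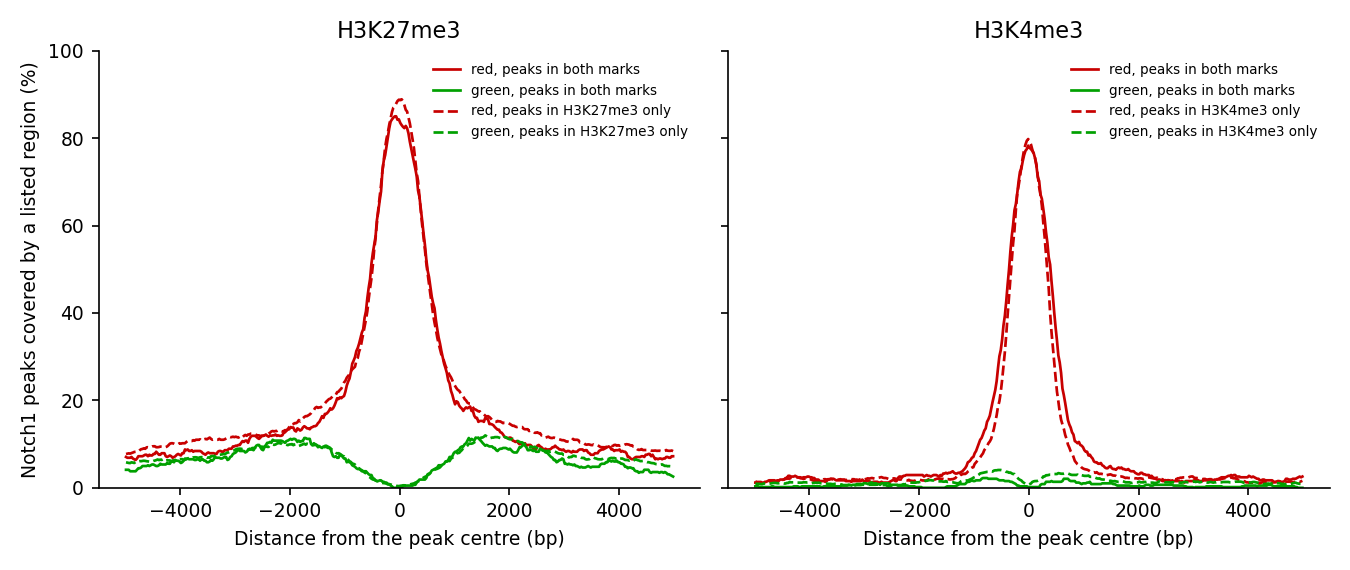
Percentage of Notch1 peaks covered by red or green H3K27me3 (left) and H3K4me3 (right) regions, against the distance in bp from the peak centre, for peaks in both marks (solid lines) and in the mark shown only (dashed lines). Red stands highest at the centre, at 83.9% and 78.1% of the peaks in both marks, and green H3K27me3 lies near 0 there and reaches 10.5% between 1375 and 1400 bp. In peaks with H3K27me3 only, green H3K27me3 reaches 10.9% between 1525 and 1550 bp. Peaks that met only red H3K27me3 can have green H3K27me3 only outside the peak.

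Seen from the histone lists, a red region of 1 mark held a Notch1 peak more often where it also met red of the other mark. Among all autosomal regions of either colour, 14.7% of H3K27me3 and 9.56% of H3K4me3 regions held a Notch1 peak. Of 1451 red H3K27me3 regions that met only red H3K4me3, 587 (40.5%, 37.9 to 43.0) held a peak, against 2591 of 11273 red regions that met no H3K4me3 (23.0%, 22.2 to 23.8). For red H3K4me3 the share was 37.1% (34.6 to 39.7) of 1433 regions with red H3K27me3 and 14.3% (13.6 to 15.0) of 9495 without. The median width of the red H3K27me3 regions was 925 bp with red H3K4me3 and 725 bp with none, and that of the red H3K4me3 regions was 700 bp with red H3K27me3 and 600 bp with none. Among regions of 500 to 1000 bp, a range chosen after seeing the data, the shares were 32.3% (29.1 to 35.8) and 17.5% (16.6 to 18.3) for H3K27me3 and 36.7% (34.0 to 39.5) and 15.7% (14.9 to 16.6) for H3K4me3. Whether width plays a part in these differences was not tested.

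With green of the other mark the shares were lower than with red only. Red H3K27me3 regions that met any green H3K4me3 held a peak in 24 of 188 cases (12.8%, 8.35 to 18.4), which is also below the 23.0% of those that met none. Red H3K4me3 regions that met any green H3K27me3 did so in 29 of 147 cases (19.7%, 13.6 to 27.1), against 14.3% of those that met none. Among regions of 500 to 1000 bp the latter order was turned, with 12 of 92 (13.0%, 6.93 to 21.7) against 15.7%, while red H3K27me3 regions with any green H3K4me3 stood at 8 of 82 (9.76%, 4.31 to 18.3) against 17.5%. Green H3K27me3 regions held a peak in 22 of 157 cases (14.0%, 8.99 to 20.4) where they met only red H3K4me3 and in 85 of 9445 (0.900%, 0.719 to 1.11) where they met none. Green H3K4me3 regions did so in 12 of 179 cases (6.70%, 3.51 to 11.4) with red H3K27me3 and in 90 of 9812 (0.917%, 0.738 to 1.13) without. Within 500 to 1000 bp these shares were 12.3% (6.69 to 20.1) and 0.849% for green H3K27me3, and 7.04% (3.43 to 12.6) and 0.917% for green H3K4me3.

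**Figure D4:**
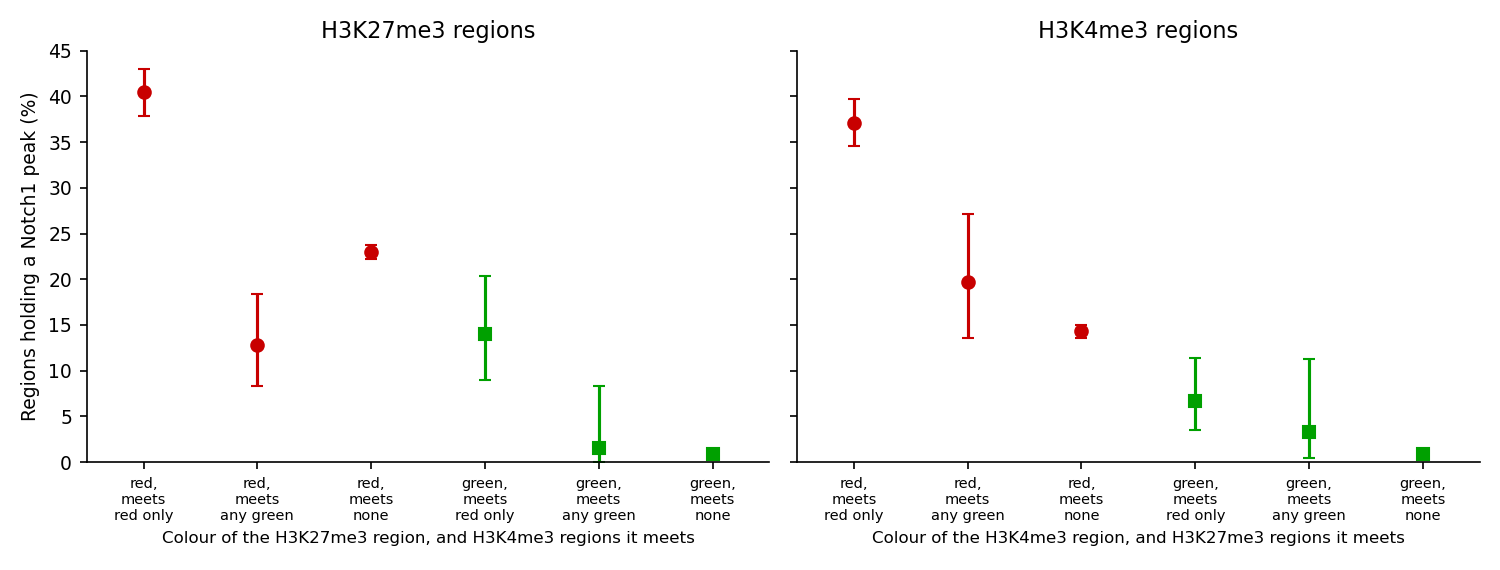
Percentage of autosomal H3K27me3 (left) and H3K4me3 (right) regions that hold a Notch1 peak, by the colour of the region (red circles, green squares) and by the regions of the other mark it meets; bars are 95% Clopper-Pearson intervals. Red regions that meet only red of the other mark stand at 40.5% and 37.1%, and green regions that meet none at 0.900% and 0.917%.

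Counted from the peaks, listed regions of the second mark were met somewhat more often where the first was red than where none of the first was met. Peaks that met 1 mark only were also wider, with medians of 700 bp for H3K27me3 and 725 bp for H3K4me3, against 650 bp in neither. The part of width in these shares was not tested. Of 3255 peaks that met only red H3K27me3, 558 (17.1%, 15.9 to 18.5) also met H3K4me3, against 1423 of 11184 peaks with no H3K27me3 (12.7%, 12.1 to 13.4). Of 1906 peaks that met only red H3K4me3, 565 (29.6%, 27.6 to 31.7) also met H3K27me3, against 2776 of 12537 peaks with no H3K4me3 (22.1%, 21.4 to 22.9). The 102 peaks with any green H3K27me3 met H3K4me3 in 22.5% of cases (14.9 to 31.9), and the 98 with any green H3K4me3 met H3K27me3 in 16.3% (9.63 to 25.2). Over all autosomal peaks 23.1% met H3K27me3 and 13.8% met H3K4me3.

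The peaks in both marks were wide for Notch1 peaks. Their median width was 775 bp (quartiles 600 and 950 bp), against 675 bp over all autosomal peaks, 700 bp in H3K27me3 only, 725 bp in H3K4me3 only and 650 bp in neither. A width of 1000 bp or more was reached by 121 of them (20.8%), by 10.6% of peaks in H3K27me3 only, by 12.9% of those in H3K4me3 only and by 4.34% of those in neither. A wide peak has more bases with which to meet a region, so width is tied to the rule. A smaller percentage of the wide peaks was covered, with a median of 53.5% in H3K4me3 at 1000 bp or more against 85.7% at 500 to 600 bp. For H3K27me3 the same medians were 86.0% and 100%. In bases the wide peaks had more, with medians of 675 bp against 450 bp in H3K4me3 and 1000 bp against 500 bp in H3K27me3.

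Cover varied among the 10 widest peaks, from 14.1% to 97.3% in H3K27me3 and from 24.0% to 76.9% in H3K4me3. The widest, 3850 bp on chromosome 18 from 81167651 to 81171500, had 33.1% of its length in red H3K27me3 and 24.0% in red H3K4me3, with 350 bp in both. The second, 2400 bp on chromosome 1 from 120732426 to 120734825, had 30.2% in H3K27me3 and 69.8% in H3K4me3, the latter in 2 red regions. Both differ from the typical peak of the group, which lay mostly within H3K27me3. A peak of 1950 bp on chromosome 8 from 72975051 to 72977000 had 275 bp in red H3K27me3 and 875 bp in red H3K4me3 but none in both. Another of 1950 bp, on chromosome 7 from 112766001 to 112767950, had 35.9% in H3K27me3 and 76.9% in H3K4me3. The remaining 6 of the 10 widest are the chromosome 15 peak described above and 5 peaks of 1700 to 1900 bp, all 5 red in both marks. These 5 had 60.3% to 97.3% in H3K27me3 and 33.3% to 76.1% in H3K4me3.

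The peaks with most bases in both marks were instead nearly covered. On chromosome 4 from 41444576 to 41446350 a peak of 1775 bp had 1350 bp in both marks, under 1 red H3K27me3 region of 2200 bp and 2 red H3K4me3 regions. On chromosome 3 from 38785026 to 38786350 all 1325 bp lay in both marks, within an H3K27me3 region of 3625 bp and an H3K4me3 region of 2525 bp. Both stretches of overlap exceed the median of 450 bp. The next 3 were on chromosome 7 from 89919576 to 89921100 with 1300 bp, on chromosome 6 from 3132326 to 3133750 with 1275 bp and on chromosome 19 from 60542726 to 60544000 with 1125 bp. The nearest other Notch1 peak was 2.75 kb away from the chromosome 4 peak and between 95.8 and 760 kb away from the other 4.

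Peaks wholly in both marks had another Notch1 peak close by less often than the less covered ones. Another Notch1 peak lay within 5 kb of 206 of the 581 peaks (35.5%, 31.6 to 39.5), near the 33.9% of all autosomal peaks. Among the 48 peaks wholly in both marks this held for 6 (12.5%, 4.73 to 25.2), and for 98 of 298 (32.9%, 27.6 to 38.5) with 50% or more, but not the whole, of the peak in both. It held for 89 of 215 (41.4%, 34.7 to 48.3) with less than 50% in both and for 13 of 20 (65.0%, 40.8 to 84.6) with none. The median distance to the nearest peak was 25.1 kb, 16.2 kb, 8.75 kb and 1.56 kb in the same order. Median peak width moved along with coverage, at 625 bp, 775 bp, 825 bp and 837.5 bp, and its part in the spacing was not tested. All 48 wholly covered peaks were red in both marks.

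**Figure D5:**
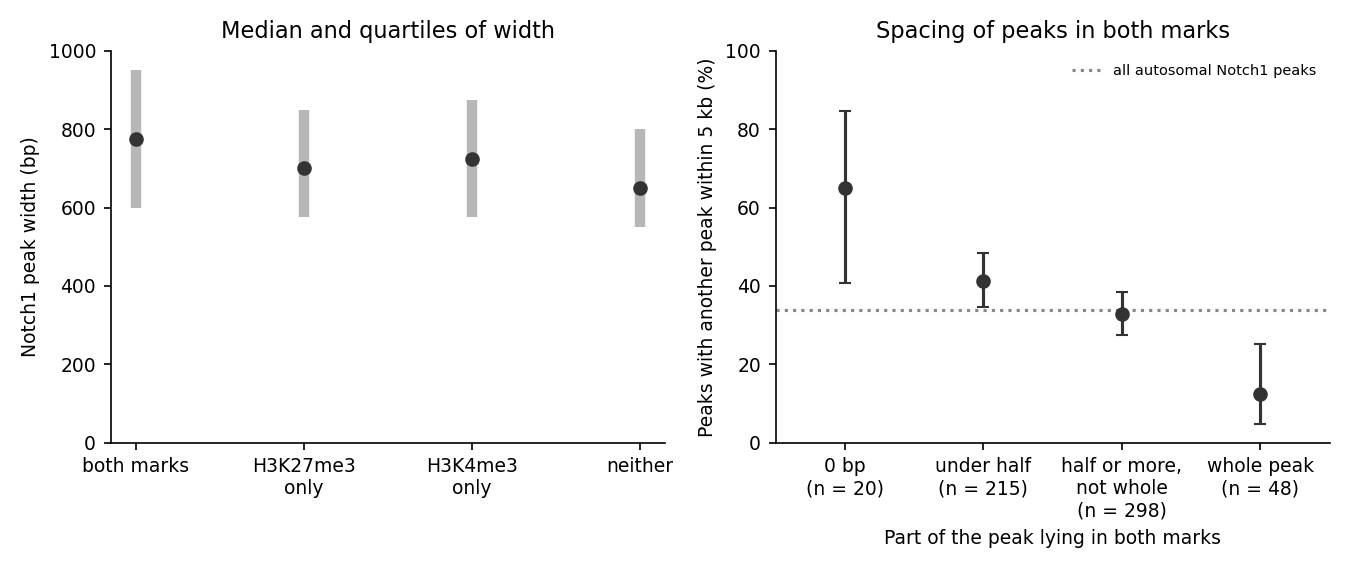
Left, width in bp of autosomal Notch1 peaks by the marks they meet (point: median; grey bar: lower to upper quartile). Right, percentage of the peaks in both marks with another Notch1 peak within 5 kb, by the part of the peak lying in both marks (bars: 95% Clopper-Pearson intervals; dotted line: all autosomal peaks, 33.9%); it runs from 65.0% at 0 bp to 12.5% for the whole peak.

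Of the 206 peaks with a close neighbour, the nearest peak lay in H3K27me3 only in 95 cases and in neither mark in 54. It was itself a peak in both marks in 37 cases and a peak in H3K4me3 only in 20. Of all 14541 autosomal peaks, 2776 were in H3K27me3 only, 9761 in neither mark, 581 in both and 1423 in H3K4me3 only. A close neighbour can lie in the same histone region as the peak, and how often it did was not counted. Joined where they shared a histone region or lay within 5 kb, the 581 peaks fell into 558 separate places, and 538 of these held 1 peak. The other 20 places held 2 or 3 of them.

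Only 3 places held 3 of these peaks. On chromosome 1 from 90148401 to 90154575, the place held 3 red H3K27me3 regions, 4 red and 1 green H3K4me3 regions and 1 green H3K9ac region, and its peaks in both marks were 925 to 1250 bp wide. A place on chromosome 10 from 79774451 to 79780850 held 5 Notch1 peaks, of which 3 were in both marks, with 4 red H3K27me3 and 3 red H3K4me3 regions. The third, on chromosome 19 from 23208551 to 23216950, had 2 red and 2 green H3K27me3 regions and 2 red H3K4me3 regions. Another 17 places held 2 peaks each, and the first 2 of them by chromosome and start are given here. One, on chromosome 1 from 90181426 to 90184200, had 2 red H3K27me3 regions with 1 red and 1 green H3K4me3 region, and the other, on chromosome 2 from 101636326 to 101638375, had 1 red region of each mark.

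Few of the peaks met a listed region of H3K9ac, an acetylation of active promoters and enhancers that the rule did not use. The H3K9ac list holds 1878 autosomal regions, against 22579 of H3K27me3 and 21127 of H3K4me3. Acetylation that did not differ between the cell types would not be listed, so these counts do not say whether the peaks lacked H3K9ac. The list covers 11 autosomes, on which 2 of 353 peaks in both marks met such a region (0.567%, 0.0687 to 2.03), beside 0.421% of all Notch1 peaks there. The share is thus near that background, and 2 peaks are too few to place it above or below. Peaks in H3K4me3 only met H3K9ac in 24 of 866 cases (2.77%, 1.78 to 4.10), and those in H3K27me3 only in 2 of 1783 (0.112%, 0.0136 to 0.405). None of the 327 peaks there that were red in both marks met H3K9ac, which by 3 counts of the total allows a share of up to 0.917%, with an upper Clopper-Pearson limit of 1.12%.

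Both peaks that met H3K9ac met green H3K9ac, green H3K4me3 and red H3K27me3. The one on chromosome 16 from 30066276 to 30066775 is 500 bp wide and lies in the window that the deposited files open on. It lay wholly in a red H3K27me3 region of 2750 bp, with 350 bp in 2 green H3K4me3 regions and 450 bp in green H3K9ac. The other, 650 bp on chromosome 9 from 44946551 to 44947200, had 400 bp in red H3K27me3, 175 bp in green H3K9ac and 25 bp in green H3K4me3. Its red and green parts did not overlap, whereas on chromosome 16 they lay on top of each other. Of the Notch1 peaks on these chromosomes with any green H3K4me3, whether or not they met H3K27me3, 15 of 61 (24.6%, 14.5 to 37.3) met H3K9ac, against 11 of 1158 (0.950%, 0.475 to 1.69) with red H3K4me3 only.

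The peaks were spread over all 19 autosomes, from 14 on chromosome 18 to 54 on chromosome 2. Their share of a chromosome's Notch1 peaks ran from 2.61% on chromosome 17 (20 of 766, 1.60 to 4.00) to 6.67% on chromosome 13 (26 of 390, 4.40 to 9.62). The interval held the autosomal 4.00% on 16 chromosomes, lay above it on chromosomes 1 (5.74%, 4.13 to 7.73) and 13, and below it on chromosome 4 (2.69%, 1.87 to 3.74). Peaks red in both marks were the majority on each, and chromosome 16 had the lowest proportion, with 11 of 15.

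Few peaks lay at the very edge of the rule, though 27 members had under 100 bp in at least 1 mark. The edges of all listed regions lie on a grid of 25 bp, so the smallest possible overlap is 25 bp, and 10 of the 581 peaks had no more than that in at least 1 mark. Those just inside include the chromosome 16 peak with 25 bp in green H3K4me3 and a peak on chromosome 14 from 106294001 to 106294875 that lay wholly in red H3K27me3 and had 25 bp in red H3K4me3. Another, on chromosome 9 from 110289201 to 110290050, had 550 bp in red H3K4me3 and 25 bp in red H3K27me3. Just outside, 3 peaks touched a region of the second mark with 0 bp between them, on chromosome 9 from 14555601 to 14556200, chromosome 7 from 52588101 to 52588675 and chromosome 11 from 119908826 to 119909325. In all, 39 peaks outside the rule met 1 mark and had a region of the other within 100 bp, and 134 had one within 500 bp.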

How the data were processed

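The samples are 18 libraries, 8 of DP cells and 10 of T-ALL. Per the labels' protocols, cells were fixed with 1% formaldehyde for 10 min, chromatin was cut with micrococcal nuclease and briefly sonicated for histone marks and sonicated alone for Notch1, and 36 bp single-end reads left 34 bp. The submitters' processing notes name BWA, NCBIM37 and mm9. Region caller, thresholds, role of the inputs and any pooling of replicates: not given in the sources used here. Deposited by the authors were 4 BED lists whose score column is constant at 1000, so only positions and colours were used; per the file headers the histone lists compare NIC with DP cells. Depth is unknown, and no test over samples could be made. The reference tables at hand are on GRCm38, so no region was given a gene or a sequence and no motif was searched.

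Overlaps, covered bases (on the 25 bp grid), distances between edges and linked places (5 kb) were computed with Python 3.11.15, pandas 2.3.3 and numpy 2.4.6, and 95% Clopper-Pearson intervals with scipy 1.17.1. Starts are 1-based, on mm9. The overlap routine was tested on simulated lists with known overlaps and gave the known answer for all 2000 peaks. Named positions were the 10 widest peaks, the 5 with most bases in both marks, the 3 widest of each minor colour pair, the fullest places, those meeting H3K9ac, those at the edge of the rule and that in the display window. A centre counted as covered when the 25 bp steps touching the midpoint were covered. The members, rules and comparisons were chosen with earlier results of these data known. Alternatives covered the overlap required, region and peak widths, merging of regions, chromosomes, and distances.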

Additional observations from a re-analysis of the deposited data

How the results depend on the processing

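Of 52 alternative values for 10 results, 37 stayed within the interval of the value reported or, for counts, within 1.5 times of it. Requiring 50% of the peak in each mark left 371 peaks in 369 places, of which 96.2% were red in both marks and 31.0% had another Notch1 peak within 5 kb. Keeping histone regions at or above their median width left 293 peaks in 283 places, and keeping Notch1 peaks at or above theirs left 387, with a median width of 900 bp and 0 meeting H3K9ac; in each case fewer features are left by construction. Another Notch1 peak lay within 1 kb of 13.6%, within 10 kb of 45.8% and within 50 kb of 72.1% of the peaks. Restricting to regions of 500 to 1000 bp, added after seeing the data, gave the share holding a Notch1 peak as 32.3% and 17.5% of red H3K27me3 regions with red H3K4me3 and with none, and as 15.7% of red H3K4me3 regions with no H3K27me3; the cause was not tested. A shared base inside the peak, 100 bp in each mark, merging within 1 kb and all chromosomes changed none of the results they were run on beyond those limits. Merging and all chromosomes left 581 peaks. Every value under these settings of merging and of all chromosomes equalled the value reported, and these values are counted among the 37. No paired analysis was possible because single libraries have no value in any list, which also prevented leaving out a replicate. Comparisons with gene starts and motifs were not run for want of an mm9 annotation and genome.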
